A study of Homo sapiens with 6 samples.

Results

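This account covers 42 genes that encode receptor tyrosine kinases outside the ERBB family, the receptors that could in principle stand in for blocked ERBB receptors. They were matched by gene symbol to the 58735 genes of the deposited table, with no threshold on a measured value, and all 42 have a row in it. RNA was sequenced from HaCaT cells, a spontaneously immortalised line of human skin keratinocytes that the labels give as wild type. The 3 control libraries are labelled as controls, and the 3 dacomitinib libraries come from cells exposed for 48 h to this irreversible inhibitor of the ERBB receptor kinases. Per the series' design text, treatment began at 70% confluence. That text attaches DMSO to the experimental group, and neither the dose nor what the controls received is given in the sources used here. All libraries come from this single cell line, and the labels leave unsaid whether replicates were separate cultures. The p-values therefore rest on the spread between libraries, and that spread may be technical. Column names matched the controls directly, while the dacomitinib columns were assigned by elimination, which fixes the sign of every difference given here.

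Receptor tyrosine kinases are membrane proteins that bind a ligand outside the cell, come together, and phosphorylate tyrosines on each other's intracellular tails. Adaptor proteins dock on these phosphotyrosines and pass the signal to the RAS-ERK, PI3-kinase and phospholipase C pathways, which the ERBB receptors also use. Keratinocytes carry several such families: FGF receptors that answer ligands from dermal fibroblasts, the HGF receptor MET, the insulin-like growth factor receptor, collagen receptors, and the Eph receptors, which bind ephrins on neighbouring cells.

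Expression is given as FPKM, fragments scaled to gene length and to a library size set by the authors, so levels can be compared between genes. A gene was tested where its mean over the 6 libraries was at least 1 FPKM, with limma on log2(FPKM + 1) and Benjamini-Hochberg adjustment over all 13748 genes tested. A gene is called higher or lower with dacomitinib at an adjusted p under 0.05. Of the 42 receptors, 19 were tested, of which 6 were higher, 6 were lower and 7 did not pass. The share of receptors called, 63.2%, lay near the background of 60.2% of all tested genes (25.4% higher and 34.8% lower), so how often the receptors were called is not a result about them. Their median difference in log2(FPKM + 1) was 0.10, beside a median of -0.06 for all tested genes. EPHA4 and INSR reached the limit of 1 FPKM only through the dacomitinib libraries, and TYRO3 and ROR1 only through the controls.

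The receptors higher with dacomitinib were EPHA4, EPHB6, AXL, IGF1R, DDR1 and MET. Those lower were FGFR3, TYRO3, EPHB4, MST1R, EPHA1 and EPHB3. Within families the calls went both ways: MET was higher and MST1R lower, AXL higher and TYRO3 lower, EPHA4 higher and EPHA1 lower, and EPHB6 higher with EPHB4 and EPHB3 lower.

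**Figure D1:**
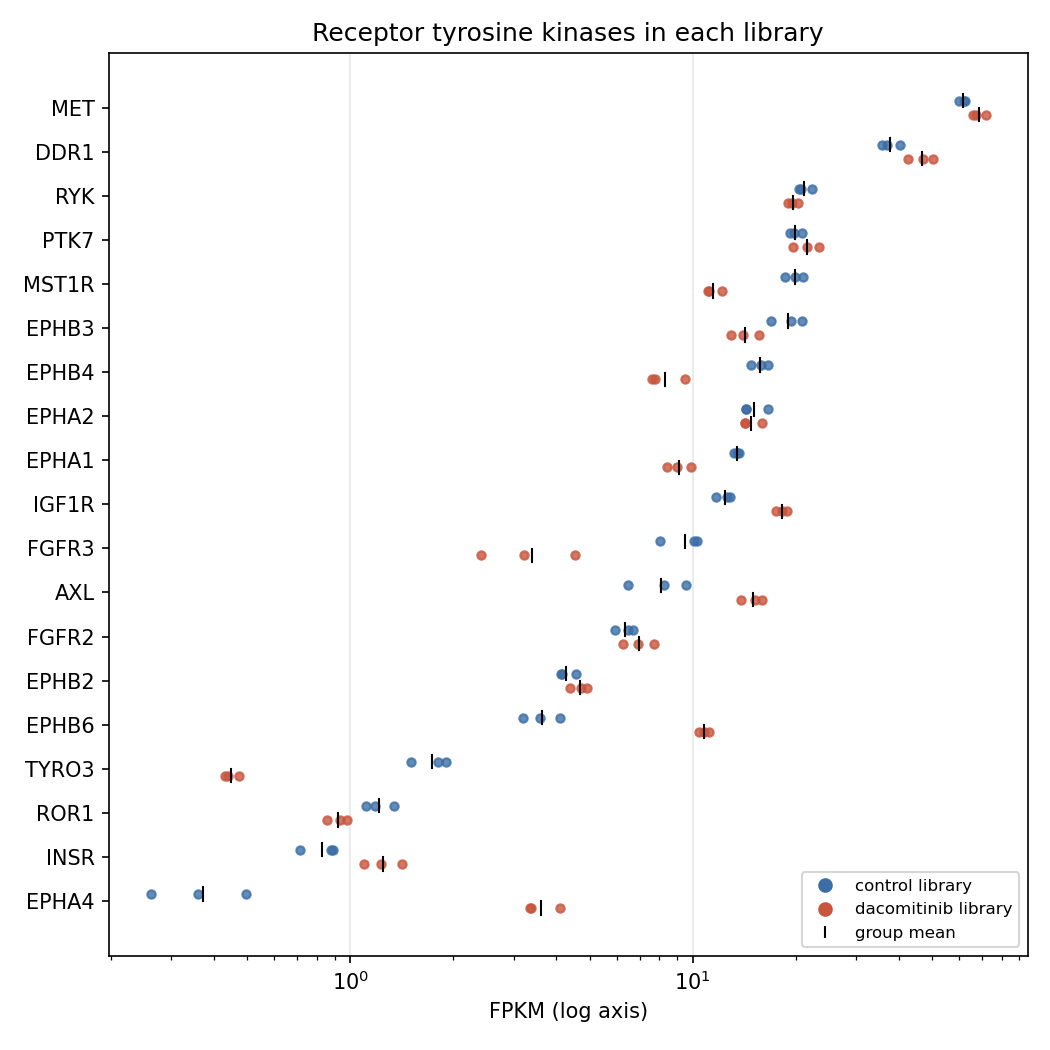
FPKM (log axis) of the 19 tested receptors in each of the 3 control and 3 dacomitinib libraries, 1 point per library, with the mean of each group as a vertical tick, ordered by the control mean. The 2 groups overlap for FGFR2, EPHA2, EPHB2 and PTK7 and for no other receptor shown, and MET and DDR1 are highest in both. The share of all tested genes without overlap was not computed.

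Stretches before a RefSeq gene start are shown for EPHA4, EPHB6 and AXL, which rose most, and for FGFR3, TYRO3 and EPHB4, which fell most, because these members moved furthest in each direction. Each is the stretch of up to 250 bases before the RefSeq start of the gene (build GRCh38.p14), written 5′ to 3′ on the gene's strand, without bases that belong to an annotated exon of the same gene. Capitals mark matches to any of 6 motifs searched on both strands: AP-1 TGANTCA, FOXO GTAAACA, ETS CCGGAAG, TEAD GGAATG, E-box CACGTG and GC box GGGCGG, which read on the other strand is CCGCCC.
EPHA4: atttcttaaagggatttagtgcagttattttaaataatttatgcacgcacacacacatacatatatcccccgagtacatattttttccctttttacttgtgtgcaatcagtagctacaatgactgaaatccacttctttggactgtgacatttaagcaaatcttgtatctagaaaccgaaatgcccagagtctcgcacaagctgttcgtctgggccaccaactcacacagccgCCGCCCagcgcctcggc
EPHB6: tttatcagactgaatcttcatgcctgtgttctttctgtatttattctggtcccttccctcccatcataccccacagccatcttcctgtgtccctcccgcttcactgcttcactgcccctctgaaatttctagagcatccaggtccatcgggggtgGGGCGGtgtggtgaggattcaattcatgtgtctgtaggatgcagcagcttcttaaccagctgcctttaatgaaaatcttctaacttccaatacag
AXL: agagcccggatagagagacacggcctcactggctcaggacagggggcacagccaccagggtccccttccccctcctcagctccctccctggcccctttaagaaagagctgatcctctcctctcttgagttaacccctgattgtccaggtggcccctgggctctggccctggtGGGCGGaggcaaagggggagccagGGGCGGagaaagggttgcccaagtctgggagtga
FGFR3: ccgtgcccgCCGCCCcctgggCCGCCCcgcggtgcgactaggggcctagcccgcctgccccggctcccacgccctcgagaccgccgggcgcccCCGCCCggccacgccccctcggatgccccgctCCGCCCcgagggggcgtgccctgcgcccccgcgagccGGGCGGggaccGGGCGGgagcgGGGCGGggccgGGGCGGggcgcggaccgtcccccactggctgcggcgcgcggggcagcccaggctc
TYRO3: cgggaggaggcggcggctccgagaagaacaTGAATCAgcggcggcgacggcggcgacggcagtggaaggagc
EPHB4: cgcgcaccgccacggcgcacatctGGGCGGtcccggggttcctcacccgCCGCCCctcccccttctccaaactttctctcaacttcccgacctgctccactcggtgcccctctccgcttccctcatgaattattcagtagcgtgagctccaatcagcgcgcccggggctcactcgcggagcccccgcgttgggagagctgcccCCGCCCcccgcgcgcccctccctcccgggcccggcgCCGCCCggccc

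The stretches lie at chr2:221574203-221574452 (EPHA4, minus strand), chr7:142862506-142862755 (EPHB6, plus strand), chr19:41218973-41219202 (AXL, plus strand), chr4:1793043-1793292 (FGFR3, plus strand), chr15:41558962-41559033 (TYRO3, plus strand) and chr7:100827524-100827773 (EPHB4, minus strand). The RefSeq start of EPHB6 lies 7695 bases inside the gene as the deposited table draws it and that of TYRO3 1537 bases inside, while the starts of the other 4 are within 20 bases of the table's. The EPHB6 and TYRO3 stretches therefore need not be the promoters of the transcripts measured here, and no data of this study locate the start of transcription. GC content of the printed stretch was 43.2% at EPHA4, 48% at EPHB6, 63.9% at AXL, 86.8% at FGFR3, 70.8% at TYRO3 and 72.8% at EPHB4, and the median over all 35116 full RefSeq windows was 58%. These 6 stretches were picked by the change of their genes, and their GC content is a description. FGFR3 has 8 GC boxes, EPHB4 has 4, AXL 2, and EPHA4 and EPHB6 1 each, while the 3 GC boxes of the full TYRO3 window lie outside the stretch printed, which holds an AP-1 match.

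Over the 40 receptors with a window in the RefSeq table (FGFR1 and FLT4 had none), 32 windows held a GC box, against 42.6% of all windows. The GC box stood in 5 of the 6 receptors called higher and in 6 of the 6 called lower, so it did not separate them. An AP-1 match, present in 6.57% of all windows, stood in TYRO3 alone among the 12 called receptors, and an ETS match, present in 8.52%, in MST1R alone. FOXO matches (2.98% of all windows), TEAD matches (11.9%) and E-boxes (6.34%) stood in none of the 12.

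Within the HGF and MSP receptor family, MET was the most abundant of all 42 receptors and its RNA was slightly higher with dacomitinib. MET, the receptor of hepatocyte growth factor (ENSG00000105976, chromosome 7, 116672390 to 116798386, GRCh38), measured 61.9, 59.9 and 62.3 FPKM in the 3 controls and 71.7, 66.0 and 67.3 FPKM in the 3 dacomitinib libraries. The groups did not overlap, and the difference in log2(FPKM + 1) was 0.15 (SE 0.05, adjusted p = 0.0271). The MET call was lost when any of 4 libraries was left out: adjusted p was 0.0711 without control 1, 0.0820 without control 2, 0.0537 without dacomitinib 1 and 0.0595 without dacomitinib 3. It was also lost without the mean-variance trend (adjusted p = 0.0570). MST1R, also called RON, the receptor of macrophage-stimulating protein (ENSG00000164078, chromosome 3, 49887002 to 49903873), measured 21.0, 18.6 and 19.96 FPKM in the controls and 12.2, 11.2 and 11.1 FPKM with dacomitinib. Every dacomitinib library was below every control, and MST1R fell by 0.74 in log2(FPKM + 1) (SE 0.06, adjusted p = 9.68e-05). The ratio of MET to MST1R within a library, which does not depend on the scaling between libraries, was 2.94, 3.22 and 3.12 in the controls and 5.88, 5.89 and 6.06 with dacomitinib.

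In the TAM family, whose members bind GAS6 and protein S, AXL rose and TYRO3 fell. AXL (ENSG00000167601, chromosome 19, 41219203 to 41261766) measured 8.24, 6.45 and 9.58 FPKM in the controls and 13.8, 15.2 and 16.0 FPKM with dacomitinib, with no overlap, and rose by 0.83 in log2(FPKM + 1) (SE 0.13, adjusted p = 0.00155), or 1.85-fold in mean FPKM. TYRO3 (ENSG00000092445, chromosome 15, 41557675 to 41583586) measured 1.81, 1.505 and 1.90 FPKM in the controls and 0.475, 0.441 and 0.430 FPKM with dacomitinib. All 3 dacomitinib libraries were below the lowest control, a difference of -0.92 in log2(FPKM + 1) (SE 0.14, adjusted p = 0.00129), and mean FPKM was 3.87-fold lower. The ratio of AXL to TYRO3 was 4.56, 4.29 and 5.04 in the controls and 29.05, 34.4 and 37.1 with dacomitinib, a 7.24-fold change of the mean ratio. MERTK, the third TAM receptor, had group totals of 36 (control) and 83 (dacomitinib) fragments and was below the limit for the test.

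Among the FGF receptors, FGFR3 fell and FGFR2 did not pass the test. FGFR3 (ENSG00000068078, chromosome 4, 1793293 to 1808872) measured 10.3, 10.1 and 8.03 FPKM in the controls and 4.52, 2.41 and 3.22 FPKM with dacomitinib. The groups did not overlap and FGFR3 fell by 1.28 in log2(FPKM + 1) (SE 0.18, adjusted p = 0.00102), the largest fall among the 19 tested receptors on that scale, while its mean FPKM was 2.80-fold lower. FGFR2, which in epithelial cells is the receptor of FGF7 and FGF10, measured 6.48, 5.93 and 6.69 FPKM in the controls and 7.71, 6.93 and 6.28 FPKM with dacomitinib, ranges that overlap (0.11, SE 0.08, adjusted p = 0.276). FGFR3 was above FGFR2 in every control library and below it in every dacomitinib library: the ratio of FGFR2 to FGFR3 was 0.629, 0.588 and 0.833 in the controls and 1.70, 2.87 and 1.95 with dacomitinib. FGFR1 had 1 fragment in each group, and FGFR4 had 19 in the controls and 34 with dacomitinib.

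IGF1R, the receptor of insulin-like growth factors (ENSG00000140443, chromosome 15, 98648539 to 98964530), rose. It measured 12.6, 11.7 and 12.9 FPKM in the controls and 18.9, 17.6 and 18.2 FPKM with dacomitinib, with no overlap, a difference of 0.52 in log2(FPKM + 1) (SE 0.05, adjusted p = 0.000230). INSR, the insulin receptor, measured 0.879, 0.714 and 0.892 FPKM in the controls and 1.41, 1.23 and 1.10 FPKM with dacomitinib. The INSR groups did not overlap, but at this low level the difference of 0.30 (SE 0.14) did not pass the test (adjusted p = 0.105). On the recovered fragments, 382 in the controls and 660 with dacomitinib, limma-voom gave INSR a log2 difference of 0.76 (SE 0.16, adjusted p = 0.000248). The ratio of IGF1R to INSR was 14.3, 16.4 and 14.5 in the controls and 13.4, 14.3 and 16.6 with dacomitinib, and these ranges overlap (exact permutation test, two-sided p = 0.8, 3 against 3).

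DDR1, a receptor activated by collagen (ENSG00000204580, chromosome 6, 30876421 to 30900156), was the most abundant member after MET and was also higher. It measured 37.0, 35.7 and 40.4 FPKM in the controls and 50.4, 42.6 and 47.0 FPKM with dacomitinib. The 2 groups did not overlap, and the difference was 0.30 in log2(FPKM + 1) (SE 0.07, adjusted p = 0.0120). DDR2, the collagen receptor of mesenchymal cells, stayed below the limit for the test, with 1, 9 and 17 fragments in the controls and 31, 32 and 49 with dacomitinib.

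The Eph receptors, the largest family of receptor tyrosine kinases, held the 2 largest rises among the tested receptors. EPHA4, which binds ephrins of both classes (ENSG00000116106, chromosome 2, 221418027 to 221574202), measured 0.262, 0.361 and 0.495 FPKM in the controls, from 28, 42 and 55 fragments, and 4.09, 3.38 and 3.34 FPKM with dacomitinib, from 517, 424 and 439 fragments. Every dacomitinib library lay far above every control, mean FPKM was 9.68-fold higher, and the difference was 1.75 in log2(FPKM + 1) (SE 0.13, adjusted p = 5.07e-05). The added 1 holds that value down at the level of the controls. Limma-voom on the fragments, which also scales to the fragments on genes and not to the authors' library size, gave 3.47 (SE 0.25). EPHA1 (ENSG00000146904, chromosome 7, 143390289 to 143408892) measured 13.7, 13.5 and 13.2 FPKM in the controls and 8.98, 8.41 and 9.92 FPKM with dacomitinib, with no overlap, and fell by 0.52 in log2(FPKM + 1) (SE 0.06, adjusted p = 0.000526). EPHA2, the most abundant EphA receptor here, measured 14.3, 16.6 and 14.3 FPKM in the controls and 15.9, 14.2 and 14.2 FPKM with dacomitinib, and the groups overlap (-0.02, SE 0.08, adjusted p = 0.803).

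EPHB6, an Eph receptor whose kinase domain is inactive (ENSG00000106123, chromosome 7, 142855061 to 142871094), measured 3.59, 3.19 and 4.09 FPKM in the controls and 10.8, 10.4 and 11.2 FPKM with dacomitinib. The groups were widely separated and EPHB6 rose by 1.36 in log2(FPKM + 1) (SE 0.08, adjusted p = 2.16e-05), 2.98-fold in mean FPKM. EPHB4, a receptor of ephrin-B2 (ENSG00000196411, chromosome 7, 100802565 to 100827521), measured 15.9, 14.8 and 16.6 FPKM in the controls and 9.48, 7.74 and 7.62 FPKM with dacomitinib and fell by 0.86 (SE 0.09, adjusted p = 0.000229), without overlap. EPHB3 (ENSG00000182580, chromosome 3, 184561784 to 184582409) measured 20.8, 19.3 and 16.9 FPKM in the controls and 15.6, 12.9 and 14.0 FPKM with dacomitinib and fell by 0.40 (SE 0.09, adjusted p = 0.00988). The EPHB3 groups did not overlap, but the call was lost with TPM (-0.10, adjusted p = 0.293) and with quantile scaling (-0.18, adjusted p = 0.126). EPHB2 measured 4.14, 4.55 and 4.15 FPKM in the controls and 4.73, 4.39 and 4.92 FPKM with dacomitinib, overlapping ranges that did not pass the test (0.11, SE 0.07, adjusted p = 0.217).

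EPHB6 and EPHA1 are neighbours on chromosome 7, 519 kb apart, and were called in opposite directions. In the controls EPHA1 exceeded EPHB6 in every library and with dacomitinib EPHB6 exceeded EPHA1 in every library, with ratios of EPHB6 to EPHA1 of 0.262, 0.237 and 0.311 and 1.204, 1.24 and 1.13. The ratio of EPHB6 to EPHB4 likewise crossed 1, from 0.227, 0.215 and 0.246 in the controls to 1.14, 1.35 and 1.47 with dacomitinib. EPHA4 stayed below EPHA1, at a ratio of 0.0191, 0.0268 and 0.0376 in the controls and 0.456, 0.403 and 0.337 with dacomitinib. These pairs were chosen after the values were seen, and an exact permutation test of 3 against 3 gave each of these ratios, and those of MET to MST1R, AXL to TYRO3 and FGFR2 to FGFR3, p = 0.1, the smallest it can give.

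**Figure D2:**
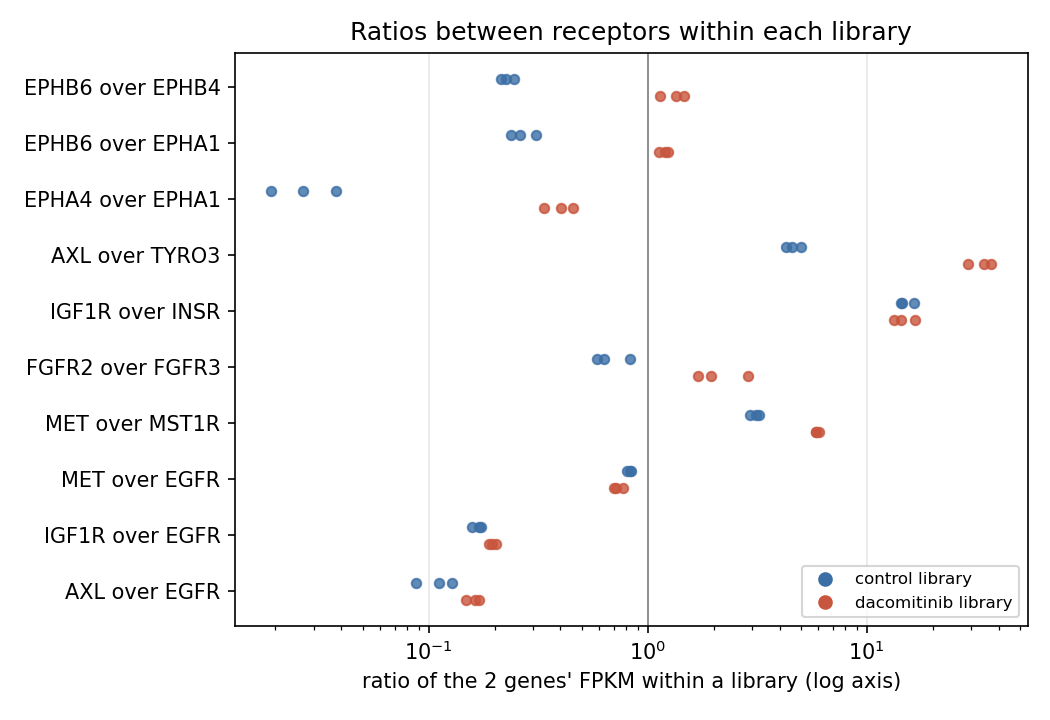
Ratio of the FPKM of 2 receptors within a library (log axis), 1 point per library, for 3 control and 3 dacomitinib libraries; the grey line is a ratio of 1. EPHB6 over EPHB4, EPHB6 over EPHA1 and FGFR2 over FGFR3 lie below 1 in all controls and above 1 in all dacomitinib libraries, and IGF1R over INSR overlaps between the groups.

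No source used here says whether counting used strand, so reads of overlapping genes cannot be told apart. EPHA1 overlaps ZYX on the opposite strand, at 31.8 FPKM in the controls and 29.7 with dacomitinib, and EPHB4 overlaps SLC12A9, at 3.77 and 3.86 FPKM, so these partners moved less than the receptors did. EPHA4 overlaps the antisense gene AC079834.2, which had mean levels of 0.0483 and 0.141 FPKM, far below EPHA4 in the dacomitinib libraries. The antisense genes over AXL (AC011510.1, 0.0793 and 0.346 FPKM) and MST1R (AC105935.1, 0.197 and 0.555 FPKM) were likewise far below the receptors.

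The receptors that bind WNT proteins or act beside their receptors were not called with the deposited scaling and the mean-variance trend. RYK, a WNT co-receptor with an inactive kinase domain, measured 20.4, 22.3 and 20.8 FPKM in the controls and 20.4, 19.5 and 19.0 FPKM with dacomitinib (-0.10, SE 0.05, adjusted p = 0.127). PTK7, a pseudokinase of planar cell polarity, measured 20.8, 19.2 and 19.7 FPKM in the controls and 23.4, 19.6 and 21.6 FPKM with dacomitinib (0.10, SE 0.07, adjusted p = 0.245). ROR1, a WNT5A receptor, measured 1.35, 1.11 and 1.19 FPKM in the controls and 0.935, 0.978 and 0.856 FPKM with dacomitinib (-0.20, SE 0.13, adjusted p = 0.219). The lowest RYK control lay just above the highest dacomitinib library, ROR1 was lower in every dacomitinib library than in any control, and the PTK7 groups overlap. Other settings called each of them. PTK7 was higher with TPM (0.42, adjusted p = 0.000761), quantile scaling (0.33, adjusted p = 0.00360) and voom (0.28, adjusted p = 0.000237), and RYK was higher with TPM (0.21, adjusted p = 0.0135). ROR1 was lower with quantile scaling (-0.38, adjusted p = 0.0427) and without the trend (-0.20, adjusted p = 0.0321).

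MET and DDR1 led in both groups and the order below them differed. In the controls RYK, PTK7, MST1R and EPHB3 followed, and each overlapped its neighbour in that order across libraries. With dacomitinib PTK7 and RYK followed and overlapped each other, then IGF1R, which overlapped neither RYK nor AXL, and then AXL, EPHA2 and EPHB3, among which neighbours overlapped. IGF1R moved from rank 10 to rank 5 of the 19, AXL from 12 to 6, EPHB6 from 15 to 10 and EPHA4 from 19 to 15, while EPHB4 went from 7 to 12 and MST1R from 5 to 9. The FPKM of all 42 receptors summed to 273 ± 5.61 in the controls and 281 ± 15.4 with dacomitinib (SD, n = 3), ranges that overlap. MET held 22.5% ± 0.128 of that sum in the controls and 24.3% ± 0.358 with dacomitinib, and IGF1R 4.54% ± 0.149 and 6.49% ± 0.125.

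EGFR, a target of the drug, itself rose from 74.3 ± 0.322 to 93.3 ± 0.595 FPKM, and 3 of the receptors called higher were set against it. The ratio of MET to EGFR was 0.835, 0.809 and 0.835 in the controls and 0.774, 0.706 and 0.717 with dacomitinib, lower in every treated library. The ratio of IGF1R to EGFR was 0.1699, 0.158 and 0.173 in the controls and 0.204, 0.188 and 0.195 with dacomitinib, and that of AXL to EGFR 0.111, 0.0872 and 0.128 and 0.149, 0.162 and 0.1703, both higher in every treated library. Each of these 3 comparisons has p = 0.1 by the exact permutation test, again the smallest possible with 3 against 3. The 3 receptors were picked after the values were seen, so these p-values add no support, and the other receptors were not compared with EGFR.

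The size of the differences depended on which scaling was used. Dividing the FPKM of each library by its median ratio to the geometric mean of each gene left 6 receptors higher and 6 lower. The median of all tested genes was then -0.06, as with the deposited scaling. TPM and voom gave other values. TPM values are larger than the FPKM values, so the added 1 weighs less with TPM, and voom does not add 1 FPKM. Voom also took the fragments on genes as library size in place of the authors' size. With 0.1 or 0.5 added to the deposited FPKM in place of 1, 6 receptors were still higher and 6 lower. The median difference of the receptors was then 0.11 with either value. How far the scaling and the added 1 each enter the TPM and voom values of single receptors was not tested. The authors' library size was 0.946 to 0.954 of the fragments on genes in the controls and 1.05 to 1.09 in the dacomitinib libraries, and rescaling to TPM moved the median of all tested genes from -0.06 to 0.23 on the log2 scale. With TPM 12 of the 19 receptors were higher and 5 lower, beside 42% and 19.8% of all tested genes. The additional higher receptors with TPM were INSR, FGFR2, EPHB2, PTK7, EPHA2 and RYK, of which EPHA2 and RYK had differences below 0 with the deposited scaling. Voom also called INSR, FGFR2, EPHB2 and PTK7 higher. Relative to the median of all tested genes, EPHA2 stood 0.03 above it with the deposited scaling and 0.05 above it with TPM. EPHA4, EPHB6, AXL, IGF1R, DDR1 and MET were called higher, and FGFR3, TYRO3, EPHB4, MST1R and EPHA1 lower, with FPKM, TPM, quantile scaling and voom.

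**Figure D3:**
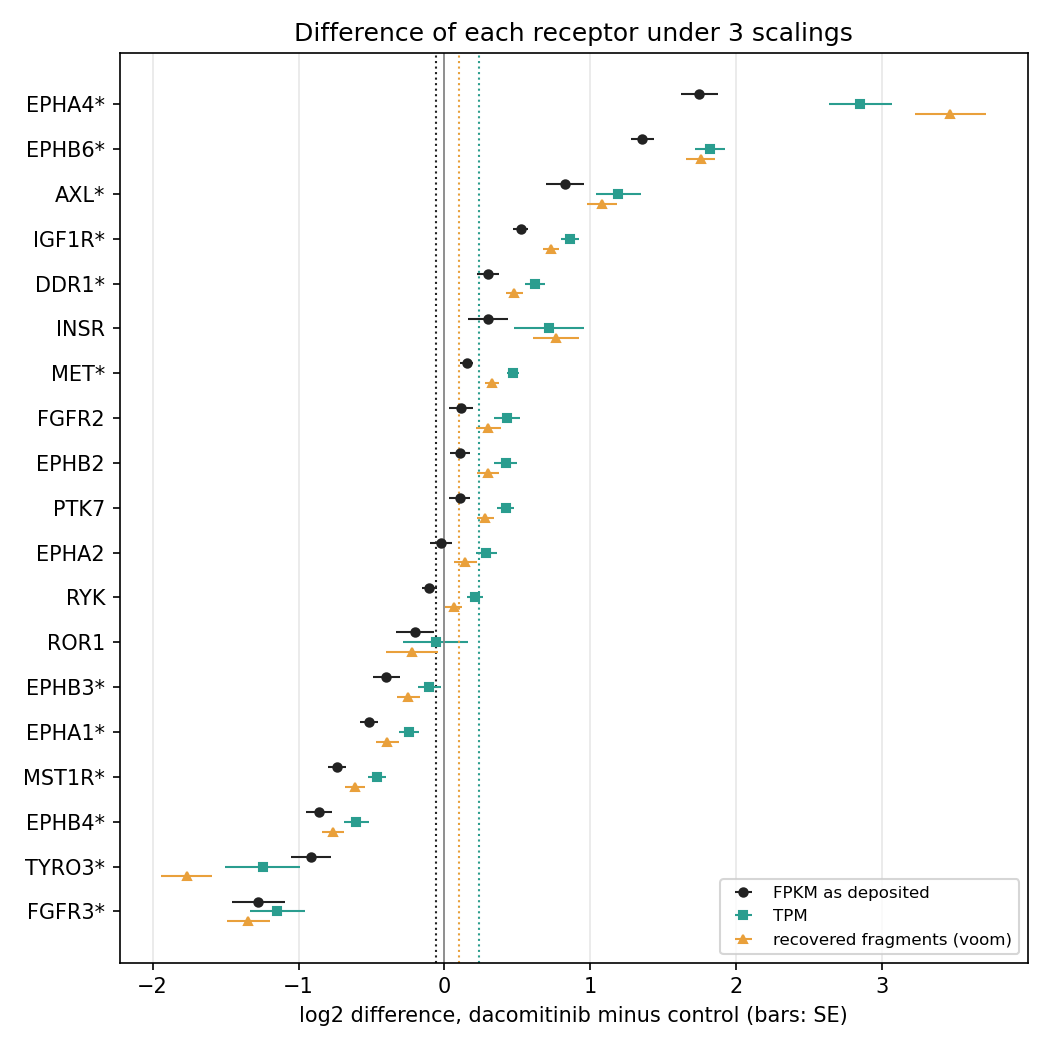
Log2 difference of each tested receptor (dacomitinib minus control, bars are the SE) with the deposited FPKM, with TPM and with voom on recovered fragments, and the median of all tested genes under each as a dotted line; an asterisk marks an adjusted p under 0.05 with FPKM. Points of TPM lie to the right of those of FPKM for every receptor except TYRO3.

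The other 23 receptors had mean FPKM below 1. EPHA7, ROR2, PDGFRA, KDR and NTRK3 had 0 fragments in all 6 libraries. A count of 0 over the 3 controls allows up to 3 fragments, which is 0.00909 FPKM for EPHA7, 0.0116 for ROR2, 0.00696 for PDGFRA, 0.0103 for KDR and 0.00253 for NTRK3, counting error only. FGFR1, PDGFRB, KIT, FLT1, FLT4, TEK, RET and LTK had 1 to 4 fragments over all libraries, and TIE1 had 1 in the controls and 11 with dacomitinib. These include the receptors of endothelial cells (KDR, FLT1, FLT4, TEK, TIE1), mesenchymal cells (PDGFRA, PDGFRB) and melanocytes and mast cells (KIT). EPHA3, EPHA5, EPHB1, CSF1R, FGFR4 and ALK had between 12 and 57 fragments per group.

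Limma-voom on the fragments of all genes with at least 10, an analysis added after the data were seen, tested 10 of these 23. NTRK2, the receptor of BDNF and NT-4, was highest among them, with 142, 84 and 125 fragments in the controls and 203, 187 and 187 with dacomitinib, and was called higher there (log2 difference 0.73, SE 0.18, adjusted p = 0.00191). DDR2 (2.51, SE 0.63, adjusted p = 0.00180) and MERTK (1.39, SE 0.50, adjusted p = 0.0251) were called as well, and none of the 10 was called lower. Limma on log2(FPKM + 1) without the filter on low values called none of these 3: adjusted p was 0.354 for NTRK2, 0.0605 for DDR2 and 0.243 for MERTK. MERTK had 7, 6 and 23 fragments in the controls and 24, 23 and 36 with dacomitinib, so its groups touch in fragments. In FPKM they overlap, with control 3 (0.333) above dacomitinib 1 (0.305) and dacomitinib 2 (0.295). In that analysis 13 of 29 receptors were higher and 6 lower, beside 29.2% and 17.5% of all 23161 genes, and the median log2 difference of those genes was 0.27.

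**Figure D4:**
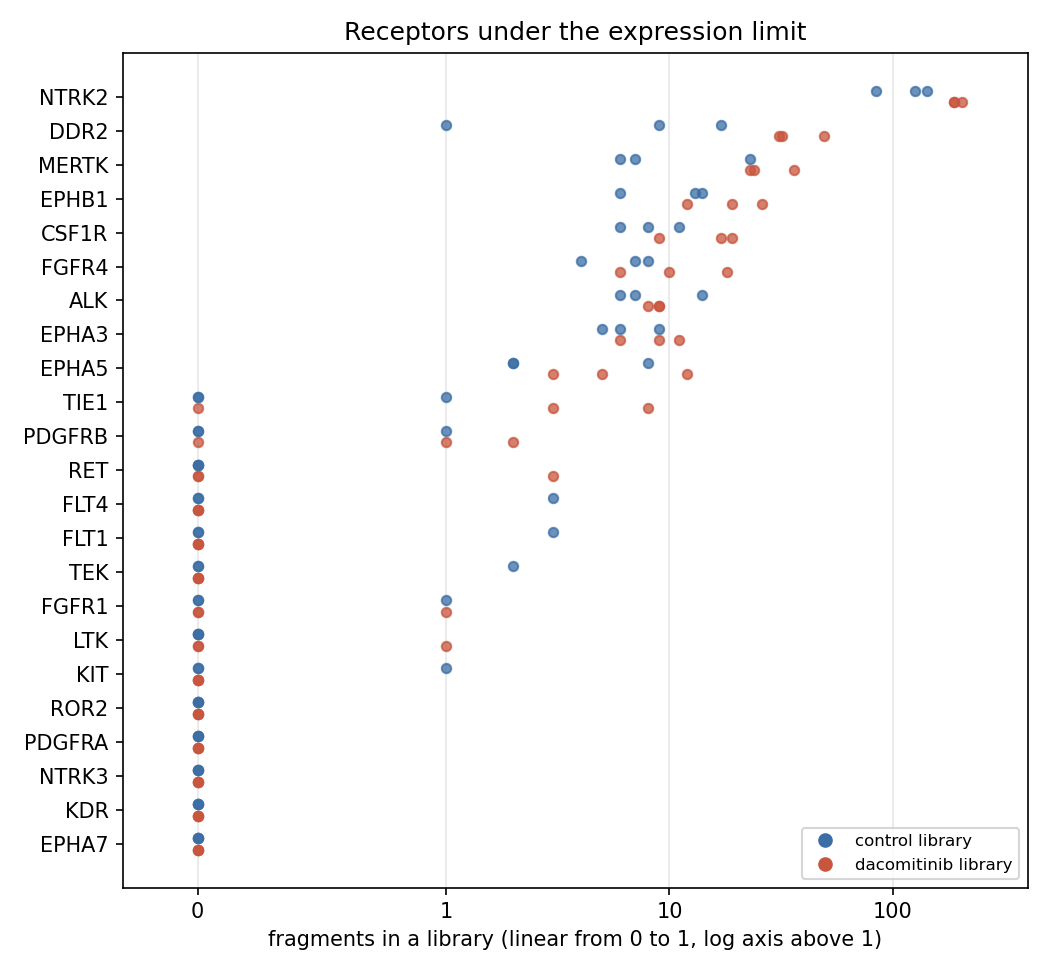
Fragments in each library for the 23 receptors with a mean under 1 FPKM (axis linear from 0 to 1 and logarithmic above), 1 point per library. NTRK2 and DDR2 are higher in all 3 dacomitinib libraries than in any control, and 5 receptors lie at 0 in all 6 libraries.

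The ligands of these receptors form a list of 51 genes, of which 20 were tested, 8 were higher and 4 lower, with a median difference of -0.03 in log2(FPKM + 1). Without dacomitinib 3, 5 were higher. NTF4, the neurotrophin NT-4 that binds NTRK2, measured 3.13, 3.18 and 1.71 FPKM in the controls and 11.3, 10.0 and 9.66 FPKM with dacomitinib and rose by 1.65 (SE 0.17, adjusted p = 0.000255). The overlapping antisense gene AC008687.2 went from 0.948 to 3.12 FPKM, and without strand their reads cannot be told apart. WNT5B, a WNT ligand, measured 0.673, 0.738 and 0.379 FPKM in the controls and 2.44, 2.45 and 2.03 FPKM with dacomitinib and rose by 1.06 (SE 0.14, adjusted p = 0.000827). WNT5B reached the limit of 1 FPKM only through the dacomitinib libraries, and it overlaps FBXL14, at 9.23 and 11.7 FPKM.

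Both tested ephrin-B ligands of the EphB receptors fell. EFNB1 measured 49.4, 47.4 and 44.4 FPKM in the controls and 32.1, 27.0 and 26.7 FPKM with dacomitinib, a difference of -0.70 in log2(FPKM + 1) (SE 0.08, adjusted p = 0.000380). EFNB2, a ligand of EPHB4 and EPHA4, measured 9.29, 9.74 and 10.7 FPKM in the controls and 5.88, 6.41 and 4.91 FPKM with dacomitinib, a difference of -0.70 (SE 0.10, adjusted p = 0.000853). Neither pair of groups overlapped, and EPHB4 fell beside EFNB2. The ephrin-A ligand EFNA1 went the other way, from 14.1 ± 0.490 to 20.8 ± 2.24 FPKM, a difference of 0.52 (SE 0.08, adjusted p = 0.00129). EFNA3, EFNA4 and EFNA5 did not pass the test, and EFNA2 had 0 fragments in every library. The ephrin-A ligands were added after their values were seen. HGF, the ligand of MET, had totals of 3 (control) and 1 (dacomitinib) fragments, and IGF1 and FGF10 had 0 in every library. MST1, the ligand of MST1R, had totals of 115 (control) and 285 (dacomitinib) fragments, and BDNF, a ligand of NTRK2, 31 and 119. In limma-voom on genes with at least 10 fragments both were higher, MST1 by 1.27 (adjusted p = 0.000158) and BDNF by 1.88 (adjusted p = 0.00137). BDNF overlaps the antisense gene BDNF-AS, at 0.0683 FPKM in the controls and 0.464 with dacomitinib. MST1 overlaps APEH, at 21.0 and 10.1 FPKM. Without strand the reads of these overlapping genes cannot be told apart. MST1 has near-identical copies in the genome, which makes its value uncertain. HGF, IGF1, FGF10, MST1 and BDNF were singled out after their values were seen.

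Co-receptors assist ligand binding: of 19, 12 were tested, 3 were higher and 3 lower (median -0.08). SDC4, a heparan sulfate proteoglycan that presents FGFs, measured 76.7, 76.1 and 89.2 FPKM in the controls and 240, 231 and 238 FPKM with dacomitinib and rose by 1.54 (SE 0.07, adjusted p = 6.71e-06). SDC1, a related proteoglycan, fell from 76.6 ± 1.29 to 58.4 ± 5.67 FPKM (SD, n = 3; adjusted p = 0.00302), a call lost with TPM (adjusted p = 0.227). PLXNB2, a semaphorin receptor that associates with MET, rose from 52.6 ± 1.59 to 79.5 ± 6.77 FPKM (adjusted p = 0.000356). NGFR, the low-affinity neurotrophin receptor, measured 25.1, 22.9 and 23.1 FPKM in the controls and 9.15, 10.2 and 10.7 FPKM with dacomitinib and fell by 1.17 (SE 0.07, adjusted p = 2.08e-05). The 2 groups did not overlap for any of these 4 genes, which were picked as the largest called changes of the list. The share of all tested genes without overlap was not computed.

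Docking and adaptor proteins, which carry the signal from the receptors, numbered 27, of which 22 were tested, 11 were higher and 6 lower (median 0.12). IRS2, the docking protein of IGF1R and INSR, rose from 3.32 ± 0.108 to 7.80 ± 0.240 FPKM (adjusted p = 1.39e-05), and SOS2, a RAS exchange factor, from 7.28 ± 1.05 to 12.5 ± 0.301 FPKM (adjusted p = 0.000773). PTPN11, the phosphatase SHP2 that relays receptor signals to RAS, fell from 44.6 ± 3.63 to 28.2 ± 1.49 FPKM (adjusted p = 0.000292), and PLCG1, phospholipase C gamma, from 7.45 ± 0.584 to 4.47 ± 0.691 FPKM (adjusted p = 0.00221). PLCG1 overlaps ZHX3, which was at 5.13 and 2.68 FPKM, so without strand the fall of PLCG1 is uncertain, and PTPN11 overlaps RPL6, at 209.5 and 184 FPKM. With TPM, 13 adaptors were higher and 2 lower.

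Brakes on receptors, the ubiquitin ligases and phosphatases that remove or silence them, numbered 16, of which 13 were tested, 3 were higher and 6 lower (median -0.03), against 7 and 4 with TPM. CBLB, a ubiquitin ligase of activated receptors, rose from 3.31 ± 0.339 to 8.93 ± 0.706 FPKM (adjusted p = 4.15e-05), and SOCS3, an inhibitor of cytokine signalling, from 1.84 ± 0.240 to 3.58 ± 0.188 FPKM (adjusted p = 0.000783). PTPN1, a phosphatase that acts on the insulin receptor, fell from 29.5 ± 1.28 to 15.5 ± 0.516 FPKM (adjusted p = 1.69e-05), and ZNRF3, a ubiquitin ligase of WNT receptors, from 2.96 ± 0.452 to 1.15 ± 0.0214 FPKM (adjusted p = 0.000642).

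Of 9 proteases and inhibitors that process receptors and ligands, 7 were tested, 2 were higher and 2 lower (median 0.01). SPINT1, which inhibits the activators of HGF, rose from 33.9 ± 2.23 to 54.6 ± 4.96 FPKM (adjusted p = 0.000447). FURIN, the convertase that matures MET, IGF1R and INSR, fell from 17.2 ± 1.199 to 11.5 ± 0.258 FPKM (adjusted p = 0.000304). ST14, the membrane protease matriptase, fell from 37.7 ± 1.06 to 28.5 ± 3.30 FPKM (adjusted p = 0.00508), which was lost with TPM (adjusted p = 0.272). Of 12 further genes classed here as receptor tyrosine kinases outside the 42, LMTK2 and STYK1 were the 2 tested, and both (100%) were lower. LMTK2 was at 10.1 ± 0.642 and 7.48 ± 0.245 FPKM and STYK1 at 3.04 ± 0.703 and 1.49 ± 0.248 FPKM. The LMTK2 call was lost with TPM (adjusted p = 0.157). The share called was 60% of tested ligands, 50% of co-receptors, 77.3% of adaptors, 69.2% of brakes and 57.1% of proteases, beside the same 60.2% of all tested genes.

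**Figure D5:**
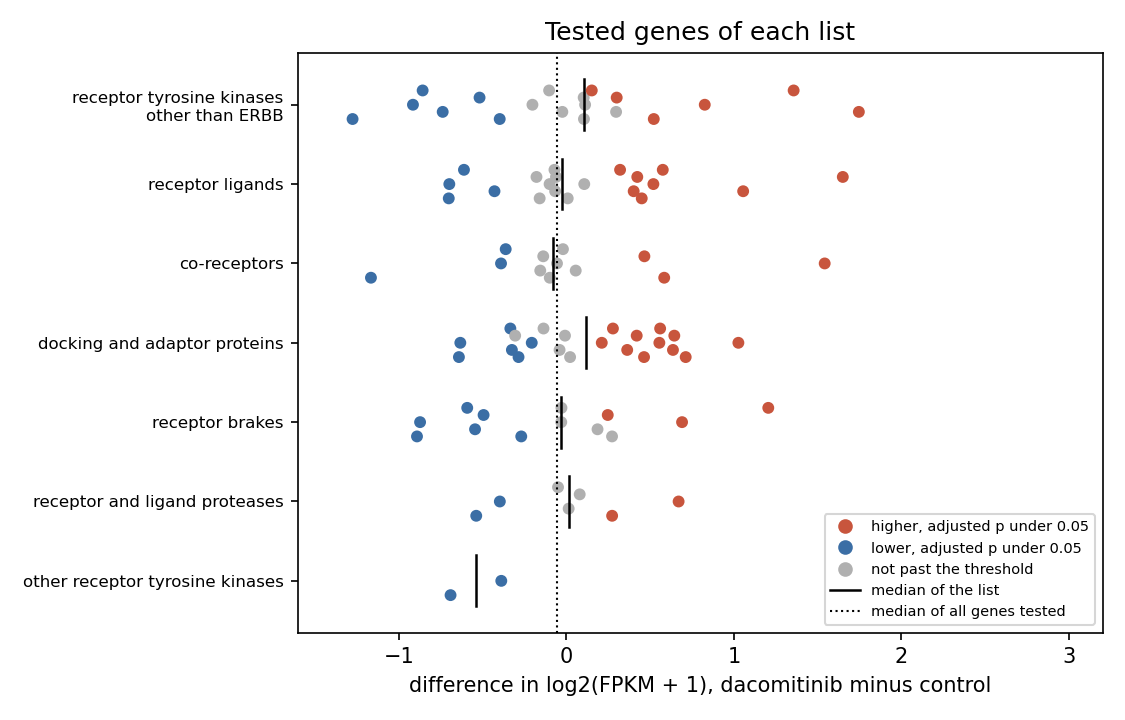
Difference in log2(FPKM + 1) of each tested gene, 1 point per gene, for the receptors and the lists around them; colour shows the direction for an adjusted p under 0.05, the black bar is the median of the list and the dotted line the median of all tested genes. The lists hold differences of both signs except the 2 tested receptor tyrosine kinases outside the 42.

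The libraries held 14960650 to 16179273 fragments on genes, and every pair of libraries differed by more than sampling noise. The share of mitochondrial fragments was 7.38% to 8.08% in the controls and 4.61% to 4.90% with dacomitinib, and genes with a fragment numbered 23580 to 24131 and 25693 to 25715. Fewer cells of a kind and less RNA per cell cannot be told apart in such bulk libraries. All 8 keratinocyte markers were tested, and they summed to 1181 to 1244 FPKM in the controls and 1021 to 1175 with dacomitinib, with 3 higher and 4 lower. Of all tested genes 25.4% were higher and 34.8% lower. Of 8 endothelial markers, ERG and EMCN were at 0 in every library, and the sum was 2.69 to 3.24 FPKM in the controls and 11.2 to 14.0 with dacomitinib, with CDH5 the only one tested and higher. Of 8 fibroblast markers, COL1A2 and COL6A3 were at 0, VIM had totals of 3 (control) and 0 (dacomitinib) fragments, and the sum was 5.89 to 7.70 FPKM against 10.3 to 14.3, with COL3A1 and FBLN1 higher. Sums of the mural markers (1.73 to 2.58 and 2.87 to 3.33 FPKM) and the melanocyte markers (2.54 to 2.87 and 3.55 to 4.34 FPKM) were low. With FPKM 1 mural and 1 melanocyte marker could be tested and neither was called, and the immune and mast cell markers (5 genes with a fragment) and Schwann cell markers were under the limit. In limma-voom on genes with at least 10 fragments, 2 of 4 mural, 3 of 6 melanocyte, 4 of 5 fibroblast and 3 of 5 endothelial markers were higher and 1 endothelial marker was lower. In that analysis 29.2% of all 23161 genes were higher and 17.5% lower, with a median log2 difference of 0.27. The part of the marker differences in the values of DDR2, NTRK2 or any other receptor was not tested.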

How the data were processed

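The deposited table gives FPKM per gene and library. The authors worked on GRCh38 and used DESeq2 1.20.0, featureCounts, HISAT2, fastp and CASAVA, per the submitters' processing notes, which give no roles. Fragments per gene were recovered from the deposited FPKM and gene length, since 100% of values gave whole fragments (tolerance 0.01). Groups were compared with limma 3.58.1 (R 4.3.3) on log2(FPKM + 1), which understates changes of low genes, for genes with a mean of at least 1 FPKM, with a mean-variance trend, two-sided, and an adjusted p of 0.05. Values are dacomitinib minus control, and errors are SE for log2 differences and SD for FPKM (n = 3). The limma step was tested on simulated data. The alternatives, 17 planned and 1 added after the data were seen, cover pseudocounts, filters, scalings, voom on fragments, a block on replicate numbers and leaving out each library. The receptors and the gene lists were chosen with earlier results of these data known. Every receptor is accounted for, and each other list names up to 2 genes with the largest rise and 2 with the largest fall past the threshold; exceptions are stated, and 1 gene that the rule names is not reported here. Windows before gene starts come from RefSeq (GRCh38.p14) at the start nearest the deposited gene start. Floors and fragment counts cover counting error only.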

Additional observations from a re-analysis of the deposited data

How the results depend on the processing

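Of the recomputed gene counts, 231 stayed within 1.5 times the reported count and 21 did not. The number of receptors higher with dacomitinib, 6 as reported, was 12 with TPM, 10 with voom and 13 with voom on all genes with at least 10 fragments. Ligands higher were 4 with a mean of at least 5 FPKM, and 5 to 7 when libraries were left out in turn. With TPM there were 7 higher and 1 lower co-receptors, 2 lower adaptors, 7 higher brakes, 5 higher and 1 lower proteases, and 1 lower receptor tyrosine kinase outside the 42. Voom gave 5 higher co-receptors, 7 higher brakes and 4 higher proteases, and voom on genes with at least 10 fragments 5, 6 and 4. Quantile scaling gave 5 higher brakes, and a mean of at least 5 FPKM 7 higher adaptors and 1 lower receptor tyrosine kinase outside the 42. Calls over all genes moved as well. Of 13748 genes, 3493 were higher and 4778 lower as reported, 5779 and 2721 with TPM, 4874 and 3816 with voom, and 4174 and 3937 with quantile scaling. Voom on genes with at least 10 fragments gave 6758 and 4048 of 23161, and a mean of at least 5 FPKM 1946 and 3633 of 7681. EPHA2 changed sign, to 0.29 with TPM, 0.19 with quantile scaling and 0.14 with both voom analyses, and ranged from -0.075 to 0.043 when libraries were left out. RYK changed sign, to 0.21 with TPM, 0.13 with quantile scaling and 0.062 with both voom analyses. Neither was called with the deposited scaling. Rescaling did not move all receptors alike: with TPM the difference of MET went from 0.15 to 0.47 and that of TYRO3 from -0.92 to -1.25. A stricter filter tests fewer genes. The cause of these changes was not tested.

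Columns of the same number did not deviate together (correlations over genes of 0.03, -0.02 and 0.04). The dacomitinib columns were assigned as a group and not by sample number, so these values cannot tell whether any libraries shared a culture. With a replicate block 6 receptors were higher and 6 lower, as without it, and no call of a named gene changed. Among named genes, 691 recomputed differences kept their sign and side of the threshold, 17 moved past it, 10 no longer passed and 11 changed sign. Of the 23 receptors under 1 FPKM, 13 had at most 4 fragments over all libraries, below both limits for a test.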
